A study of Mus musculus with 16 samples.

Results

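Oxidative phosphorylation is the last stage of respiration in the inner mitochondrial membrane. Complex I (NADH dehydrogenase) and complex II (succinate dehydrogenase) feed electrons to coenzyme Q, complex III passes them to cytochrome c, and complex IV (cytochrome c oxidase) hands them to oxygen. Complexes I, III and IV pump protons, and complex V (ATP synthase) uses the proton gradient to make ATP. Most subunits are encoded in the nucleus, and many of the small ones are accessory proteins that surround the catalytic core. The genes described here are the nuclear subunit genes, taken by symbol: every gene whose symbol starts with Ndufa, Ndufb, Ndufc, Ndufs, Ndufv, Uqcr, Cox4 to Cox8 or Atp5, with Sdha, Sdhb, Sdhc and Sdhd, and without pseudogenes, Rik clones and the Ndufaf assembly factors. The rule found 85 of the 24421 genes in the tables keyed by symbol: 37 of complex I, 4 of complex II, 8 of complex III, 19 of complex IV and 17 of complex V. It found 86 of 51912 entries in the table of normal tissues, and 82 symbols stood in both kinds of table. Ndufa4l2, Cox7a2l, Atp5s and Atp5sl carry a matching symbol but are not classic subunits.

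RNA-seq of polyA RNA was deposited for 16 libraries of C57BL/6 mouse organoids, which are cell cultures grown in 3 dimensions. All tumour organoids carried Trp53-/-, Myc and sgCdkn2a (TMP), and came from tumours grown in recipient mice after transplantation into the nasopharynx. The TMP groups were Ctr (3 libraries) and Lung-Ctr (2), both labelled primary. The TMPL groups carried LMP1, a membrane protein of Epstein-Barr virus, in addition, and were LMP1 (2 libraries) and Lung-LMP1 (3), both labelled metastasis. By these sample labels, LMP1 and metastasis cannot be told apart. The design text of the series, however, names primary as well as metastasized organoids for either genotype, and it does not say which libraries they are or what the Lung prefix stands for. Which libraries came from metastases is therefore not settled by the sources. Untreated Normal_nasopha (3) and Normal_lung (3) organoids completed the set. Another 3 columns were deposited next to Ctr, in the comparison named for normal nasopharynx, but carry the heading of normal lung. The name comparator is used for them, because the headings and the table's name disagree on their tissue. Their marker levels were near those of Normal_nasopha and far from Normal_lung. Krt5, a basal cell keratin, was at 8075, 2090 and 5913 CPM in the comparator, 6146, 1578 and 4452 in Normal_nasopha and 4.27 to 51.0 in Normal_lung. Sftpc, an alveolar surfactant gene, was at 133.7, 31.4 and 30.1 CPM in the comparator, 121.9, 28.7 and 26.4 in Normal_nasopha and 37320 to 45810 in Normal_lung. The values follow Normal_nasopha replicate by replicate, so both tables may hold the same libraries counted differently, and the comparisons with the comparator and with Normal_nasopha are not taken as independent. The labels do not tell whether replicates came from different animals or cultures. The p-values therefore cover the spread among these libraries alone, which may be technical.

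Library totals ran from 12535166 to 21737184 counts, so that 3 counts, the smallest number taken as detected, equal 0.138 to 0.239 CPM (counts divided by the library total and rescaled). The targeted genes left the following transcript levels. Trp53 reads remained in all tumour libraries (58.1 to 108.7 CPM, against 63.3 to 156.3 in the comparator). Cdkn2a was at 121.6 to 381.1 CPM in the tumours and 4.83 to 7.82 in the comparator, and Myc at 456.6 to 2005 against a comparator median of 75.9. A guide or deletion need not remove the reads of a gene. The LMP1 libraries stood apart in cell type markers. Their 11 fibroblast and mesenchymal markers summed to 1668 and 2088 CPM, led by Vim, against 3.31 to 617.4 in Ctr, 13.02 to 24.0 in Lung-Ctr and 8.86 to 18.7 in Lung-LMP1. Their 7 basal epithelial markers summed to 164.9 and 220.7 CPM, against 1492 to 3699 in Ctr, 1044 to 4931 in Lung-Ctr and 2683 to 4135 in Lung-LMP1. In LMP1 against Ctr, 7 of 7 basal and 6 of 8 epithelial markers were lower, and 1 of 8 mesenchymal markers tested was higher.

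Together the subunit genes took a similar small share of all counts in each group. Shares were summed over the 78 of the 85 genes with a mean of at least 1 CPM. They held 1.04% of all counts in Ctr, 1.18% in LMP1, 0.992% in Lung-Ctr, 1.08% in Lung-LMP1 and 0.971% in the comparator (group means). By complex, the sums in Ctr and the comparator went both ways. Mean sums were 2059 CPM in Ctr and 2399 in the comparator for complex I, and 1593 and 2106 for complex IV. They were 702.4 and 506.6 for complex II, 1178 and 1094 for complex III, and 4874 and 3597 for complex V. Per kilobase of the longest annotated transcript, the catalytic beta and alpha subunits of ATP synthase, Atp5b and Atp5a1, were the most abundant in Ctr, at mean levels of 805.4 and 532.1 CPM per kilobase. The c-ring gene Atp5g3 (330.7) and the complex IV gene Cox4i1 (312.7) followed. Ndufs5 (complex I), Cox7b2 and Cox8c had no count in any of the 13 columns of the symbol-keyed tables. In the normal tissues, counted in another table, Ndufs5 was at 29.9 to 40.5 CPM, so its 0 in the symbol-keyed tables cannot be read as missing expression. Levels were not compared between the 2 kinds of table. Of the 85 genes, 78 passed the filter on low counts in the tumour fit: 36 of complex I, 4 of complex II, 8 of complex III, 13 of complex IV and 17 of complex V. No mitochondrially encoded subunit stands in the tables.

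The members differed widely in how steady they were across the 10 tumour libraries. The most even were mainly core and abundant subunits: the highest library exceeded the lowest by 0.23 on the log2 scale for Cox7a2, by 0.32 for Atp5a1, by 0.33 for the flavoprotein Sdha and by 0.36 for Atp5b. Atp5k, which encodes the small subunit e of ATP synthase, had a range of 5.14, from 1.20 to 43.4 CPM. It was followed among members with a median above 1 CPM by Ndufa3 (2.43), Uqcr11 (2.33), Cox6b1 (2.30), Ndufa12 (2.25) and Uqcrq (2.03), all small accessory subunits. The heat map of the tested members shows these genes as a minority that separates TMP from TMPL libraries.

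**Figure D1:**
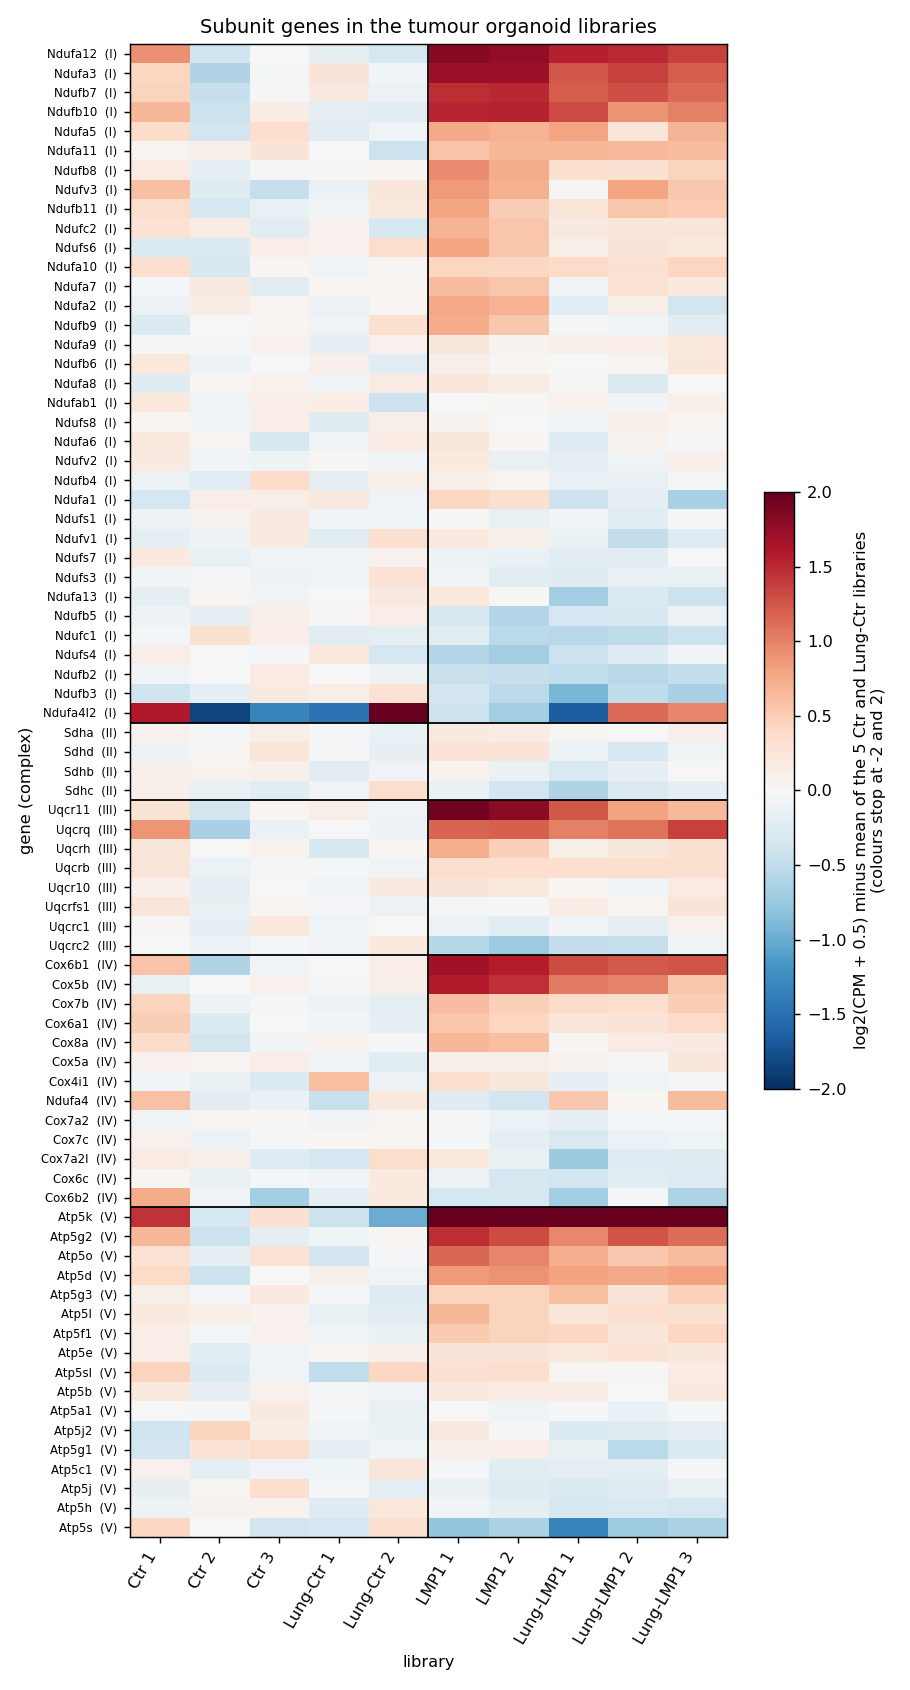
Each row is 1 of 77 of the 78 tested subunit genes, grouped by complex, and each column 1 tumour library, with the 5 TMP libraries on the left and the 5 TMPL libraries on the right. Colour is log2(CPM + 0.5) minus the mean of the 5 TMP libraries. Most rows stay near 0 in every column, and Atp5k, Ndufa3, Ndufa12, Cox6b1 and Uqcr11 are above it in the TMPL columns.

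The first comparison asked how LMP1 tumour organoids differed from Ctr. A group of mostly small subunits, many of them accessory, was higher in LMP1, with members from complexes I, III, IV and V. In complex V these included genes of the c-ring and the stalk. The pair of genes named as core for each complex was not called by edgeR, and other core subunits are not covered by that pair. Of 78 members tested, 18 were higher and 2 lower by edgeR's quasi-likelihood test at an adjusted p under 0.05. Over all 13460 genes tested, 7.36% were higher and 9.06% lower (16.4% called in all). The median log2 difference was 0.17 over the members and -0.01 over all genes. The CPM of the groups did not overlap for 38 members higher and 8 lower. Among the 13460 genes it did not overlap for 3956 higher and 3621 lower, so separation of groups this small is common. By complex, 10 were higher and 1 lower of 36 in complex I, 0 of 4 changed in complex II, 1 was higher and 1 lower of 8 in complex III, 2 of 13 were higher in complex IV and 5 of 17 in complex V. In the authors' deposited table for this comparison, 21 members were higher and 2 lower of 78 with an adjusted p, where 27.7% of all genes were called.

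In complex I, Ndufa3 was at 12.6, 5.83 and 8.97 CPM in Ctr and at 31.2 and 31.5 in LMP1. Ndufa12, which sits close to the electron-entry arm, was at 40.1, 15.8 and 21.1 CPM in Ctr and at 75.8 and 73.1 in LMP1. Neither gene overlapped between the groups, and the log2 differences in edgeR were 1.76 (SE 0.30, adjusted p 0.00946) and 1.51 (SE 0.33, adjusted p 0.0191). The membrane-arm genes Ndufb7, Ndufb10 and Ndufb8 were higher as well, by 1.47 (adjusted p 0.0101), 1.33 (adjusted p 0.0184) and 0.85 (adjusted p 0.0124) in edgeR. Ndufs6, Ndufa2, Ndufa7 and Ndufb9 were also higher, by 0.59 to 0.81. Ndufs4, an accessory subunit needed for assembly of the electron-entry arm, was the exception: it was at 66.0, 60.5 and 59.0 CPM in Ctr and at 39.7 and 36.7 in LMP1, and fell by 0.72 (SE 0.19, adjusted p 0.0383 in edgeR).

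In complex III, 2 members moved in opposite directions. Uqcr11, its smallest subunit gene, was at 19.6, 12.5 and 16.6 CPM in Ctr and at 62.6 and 57.6 in LMP1, a log2 difference of 1.86 (SE 0.25, 3.64-fold, adjusted p 0.00497 in edgeR). Uqcrc2, one of the large core proteins, was at 297.5, 276.6 and 292.6 CPM in Ctr and at 202.3 and 180.4 in LMP1, and fell by 0.62 (SE 0.16, adjusted p 0.0308 in edgeR). In both genes the groups were separate.

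In complex IV, Cox5b and Cox6b1 were higher. Cox5b, a nuclear subunit facing the matrix, was at 21.7, 24.3 and 25.6 CPM in Ctr and at 73.7 and 67.5 in LMP1. Cox6b1, which lies on the side that binds cytochrome c, was at 64.8, 28.5 and 40.8 CPM in Ctr and at 140.4 and 130.3 in LMP1. The Ctr libraries were close together for Cox5b and spread for Cox6b1, where replicate 1 was the highest. The log2 differences were 1.54 (SE 0.19, 2.91-fold, adjusted p 0.00419) and 1.58 (SE 0.28, 2.98-fold, adjusted p 0.0111) in edgeR.

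In complex V, Atp5k had the largest difference of all called members. It was at 8.74, 2.16 and 3.69 CPM in Ctr and at 43.4 and 41.9 in LMP1. Every LMP1 library was above every Ctr library, with a log2 difference of 3.11 (SE 0.51, 8.63-fold, adjusted p 0.00832 in edgeR). The c-ring gene Atp5g2 was at 170.2, 79.4 and 95.4 CPM in Ctr and at 301.3 and 265.4 in LMP1, a log2 difference of 1.28 (SE 0.28, adjusted p 0.0196 in edgeR). Atp5o, the stalk subunit that confers oligomycin sensitivity, was higher by 0.89 (SE 0.18, adjusted p 0.016), Atp5d by 0.83 (adjusted p 0.0313) and Atp5l by 0.41 (adjusted p 0.0487) in edgeR.

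None of the core pairs named for each complex was called by edgeR. In complex IV the pair, Cox4i1 and Cox5a, is nuclear like Cox5b and Cox6b1, and no mitochondrially encoded subunit is in the data. No contrast of core and accessory subunits was therefore measured in complex IV. Cox5a was at 149.1, 145.2 and 154.0 CPM in Ctr and at 150.1 and 152.1 in LMP1, with a 95% interval of the log2 difference from -0.28 to 0.27. Sdha was at 262.7, 242.0 and 265.8 CPM in Ctr and at 281.6 and 274.5 in LMP1, with an interval from -0.17 to 0.36. For Atp5b the interval ran from -0.21 to 0.43, for Atp5a1 from -0.41 to 0.16, for Uqcrfs1, the iron-sulphur protein of complex III, from -0.44 to 0.22 and for Ndufs1, the largest core subunit of complex I, from -0.46 to 0.18. These intervals leave out a difference of the size seen in Cox5b or Uqcr11. Sdhb (-0.45 to 0.15), Ndufv1 (-0.30 to 0.63), Uqcrc1 (-0.57 to 0.13) and Cox4i1 (-0.02 to 0.85) did likewise. Cox4i1 was, however, called higher in LMP1 in the authors' deposited table (0.415, adjusted p 0.03). It was at 255.6, 242.1 and 220.0 CPM in Ctr and at 338.0 and 310.2 in LMP1, without overlap. Cox5b and Cox5a belong to the same complex, and only the first was called.

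**Figure D2:**
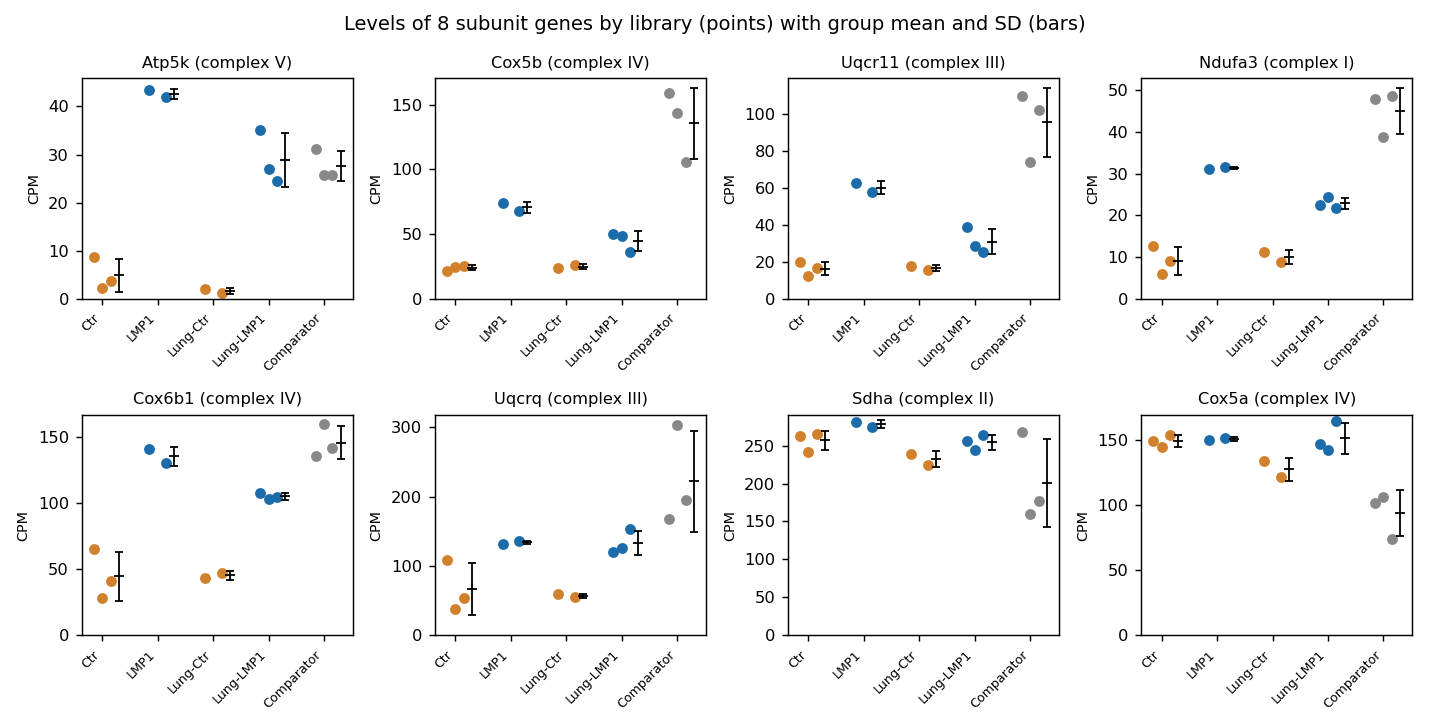
The vertical axis of each panel is CPM for 1 gene and starts at 0, each point is 1 library, and the bar and whiskers are the group mean and SD. Atp5k, Cox5b, Uqcr11, Ndufa3 and Cox6b1 are higher in LMP1 and Lung-LMP1 than in Ctr and Lung-Ctr in every library, while Cox5a stays between 121.6 and 164.8 CPM in the 10 tumour libraries.

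The mesenchymal and basal markers also differed between the LMP1 and Ctr groups, and their part in the subunit differences was not tested in this comparison. Within Ctr, replicate 2 had the highest Vim (372.7 CPM) and the lowest Atp5k (2.16 CPM), Ndufa3, Uqcr11 and Cox6b1, though not the lowest Cox5b. In bulk libraries, fewer cells of a type and less RNA per cell cannot be told apart. The calls rested on both LMP1 libraries. Most ended in fits that left 1 library in that group, which is assumed to vary like the other groups. Leaving out Ctr replicate 3 gave 11 called members, and leaving out Lung-LMP1 replicate 3 gave 13. The share of all genes called in these fits is not given here, so the losses cannot be read as particular to the members. Transcript length and GC content were also related to the differences. Across 77 members with an annotation, Spearman's rho with the longest transcript was -0.34 and with GC content 0.32, as a description over genes that share libraries. The median longest transcript was 808 bases for the higher members and 1231 for those not called. With both properties modelled as offsets, 15 members were higher and none lower, against 3.02% and 4.14% of all genes. The calls of Atp5g2 (adjusted p 0.122), Uqcrc2 (adjusted p 0.474) and Ndufs4 (adjusted p 0.422) ended in that edgeR fit, while Atp5k (2.93, adjusted p 0.0106), Cox5b (1.64, adjusted p 0.00607) and Uqcr11 (1.41, adjusted p 0.0142) stayed called.

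The second pair, Lung-LMP1 against Lung-Ctr, shares no library with the first. Atp5k, Ndufa12 and Cox5b were again separated by genotype, although edgeR called no member at an adjusted p under 0.05. By the sample labels, genotype and metastasis cannot be told apart in this pair either. Atp5k was at 2.02 and 1.20 CPM in Lung-Ctr and at 35.1, 27.1 and 24.5 in Lung-LMP1. Ndufa12 was at 18.5 and 16.6 CPM in Lung-Ctr and at 62.8, 60.2 and 55.4 in Lung-LMP1. Cox5b was at 23.4 and 26.1 CPM in Lung-Ctr and at 50.3, 48.3 and 35.7 in Lung-LMP1. In all 3 genes each Lung-LMP1 library was above both Lung-Ctr libraries. The log2 differences were 4.22 for Atp5k (SE 0.62, 18.6-fold), 1.81 for Ndufa12 (3.51-fold), 0.91 for Cox5b, 0.89 for the complex I membrane subunit gene Ndufa11 and 0.88 for Atp5o, with adjusted p of 0.109 to 0.114 in edgeR. In this comparison 0% of all genes were called, 29 members and 17.1% of all genes had an unadjusted p under 0.05, and DESeq2 called 16 members higher and 1 lower, against 3.45% of all genes higher. In the authors' deposited table, 1 member was lower and 13 were higher of 77, against 3.42% of all genes called. The CPM of the groups did not overlap for 31 members higher and 14 lower, against 15.1% and 18.4% of all genes, so the count of lower members lies near its background.

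The members kept a similar order of differences in the 2 pairs. Of 78 members, 57 (73.1%) had the same sign in both, against 63.4% of all genes. Pearson's r across the 78 members was 0.861 and Spearman's rho 0.734, against 0.0812 and 0.266 across 13460 genes. These are descriptions across genes, which share libraries and one fit and are not independent replicates. Among the 58 members not called in LMP1 against Ctr, r was 0.758 and rho 0.625. Of these, 39 (67.2%) had the same sign in both pairs, near the 63.4% of all genes. Their median log2 differences were 0.005 in the first pair and 0.028 in the second. Of the 18 members higher in LMP1, 16 (88.9%) were also higher in Lung-LMP1, against 84.2% of all genes called higher, so this share lies near that of other genes. In the Lung-LMP1 libraries the mesenchymal markers were near their Lung-Ctr level, as given above, and Vim was at 0 to 1.04 CPM, against 1350 and 1017 in LMP1.

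**Figure D3:**
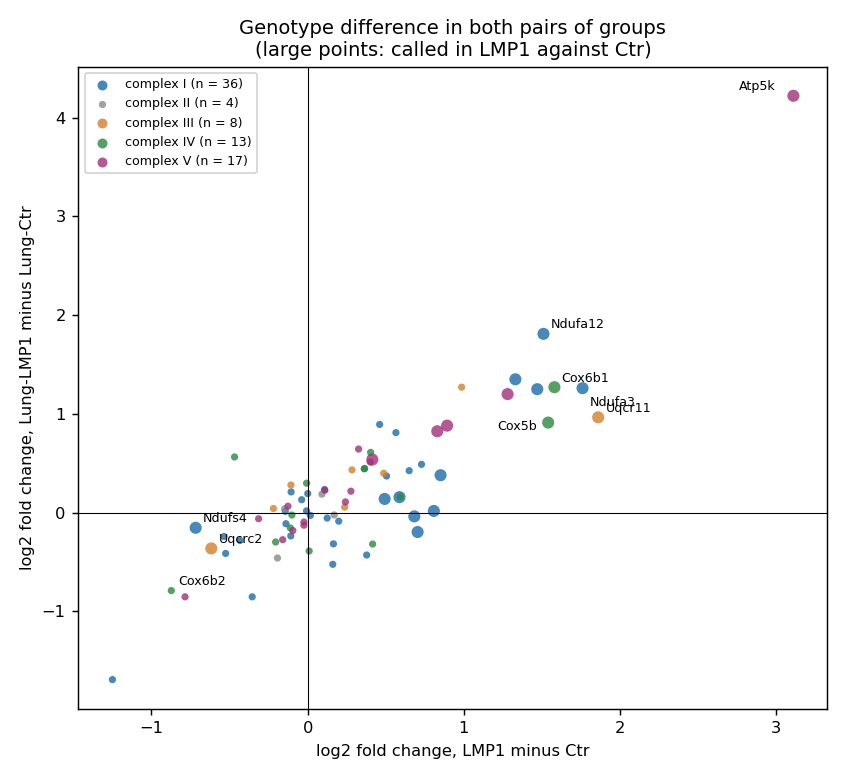
Each point is 1 subunit gene, coloured by complex. The horizontal axis is the log2 difference of LMP1 and Ctr, the vertical axis that of Lung-LMP1 and Lung-Ctr, and large points were called in LMP1 against Ctr. Atp5k lies far to the upper right at 3.11 and 4.22, and 57 of the 78 genes have the same sign on both axes.

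A pooled contrast of the 5 TMPL with the 5 TMP libraries, added after the data were seen, used the same 10 libraries and is no independent evidence. It called 23 members higher and 5 lower, against 8.48% and 9.61% of all genes (18.1% in all). Complex III and complex V had the larger shares: 4 higher and 1 lower of 8, and 7 higher and 1 lower of 17. Complex I had 9 higher and 3 lower of 36, complex IV 3 higher of 13 and complex II none. The groups did not overlap for 19 members higher and 2 lower, against 4.77% and 5.1% of all genes. After the length and GC offsets, 19 were higher and 1 lower, against 4.73% and 3.69%.

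The pooled fit called several small subunits that this edgeR fit had called in neither pair. In the authors' deposited table, Uqcrq (adjusted p 2.54e-06), Ndufa11 (0.0221) and Cox7b (0.0372) were already called in Lung-LMP1 against Lung-Ctr, and Uqcrh (0.0434) in LMP1 against Ctr. Uqcrq, a small complex III subunit bound to cytochrome b, was at 108.7, 37.5 and 53.9 CPM in Ctr and at 59.2 and 54.9 in Lung-Ctr. It was at 132.5 and 135.7 CPM in LMP1 and at 119.8, 126.1 and 153.2 in Lung-LMP1. Ctr replicate 1 lay near the TMPL libraries but below all of them, and the log2 difference was 1.13 (SE 0.26, adjusted p 0.0221 in edgeR). Ndufa11 was at 27.0 to 43.6 CPM in TMP and at 54.4 to 58.3 in TMPL, without overlap, a log2 difference of 0.68 (SE 0.12, adjusted p 0.00934 in edgeR). It was no longer called after the length and GC offsets (0.40, adjusted p 0.135). The complex III genes Uqcrh (0.44, adjusted p 0.0271) and Uqcrb (0.36, adjusted p 0.0486) and the complex IV gene Cox7b (0.51, adjusted p 0.0283) were higher by smaller amounts in edgeR. The largest differences were again those of Atp5k (3.66, SE 0.40, 12.7-fold, adjusted p 0.00307) and Ndufa12 (1.66, SE 0.24, 3.17-fold, adjusted p 0.00504).

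The 5 lower members, of 78 tested and against 9.61% of all genes, were Uqcrc2, Ndufb2, Ndufb3, Ndufc1 and Atp5s. Ndufb2, Ndufb3 and Ndufc1 belong to the membrane arm of complex I, and Atp5s is a coupling factor outside the core enzyme. After the length and GC offsets only 1 member, of complex I, was called lower, so the calls of Uqcrc2 and Atp5s ended. Atp5s was at 17.6 to 30.9 CPM in TMP and at 8.94 to 14.7 in TMPL, and fell by 0.82 (SE 0.23, adjusted p 0.0405 in edgeR). Ndufb3 was at 22.6 to 36.5 CPM in TMP and at 15.6 to 23.1 in TMPL, where the groups overlapped slightly, and fell by 0.60 (SE 0.16, adjusted p 0.0326 in edgeR). Ndufb2 fell by 0.47 (adjusted p 0.0262), Uqcrc2 by 0.49 (adjusted p 0.0187) and Ndufc1 by 0.39 (adjusted p 0.0451) in edgeR. Without Lung-LMP1 replicate 3, 17 members were called in place of 28. Fewer were called without either LMP1 replicate, which left 1 library in that group. The share of all genes called in these fits is not given here.

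Promoter sequence of members on both sides of this division is shown next, because genes that move together may share letters upstream of their starts. The factors NRF1 and GABP (an ETS factor) are known to bind upstream of many respiratory genes, and MYC binds E-boxes. The stretches are the 100 bases upstream of the start on the strand of the gene, from RefSeq, build GRCm38.p6. Capitals mark a match to the NRF1 motif GCATGCGC (reverse complement GCGCATGC) or the ETS motif CCGGAAG (reverse complement CTTCCGG). The E-box searched was CACGTG, and all were searched on both strands. Atp5k (chr5:108434449-108434548, minus strand), Uqcr11 (chr10:80406831-80406930, minus strand), Cox5b (chr1:36691349-36691448, plus strand) and Ndufa11 (chr17:56717662-56717761, plus strand) were higher in TMPL, and Cox5a (chr9:57521132-57521231, plus strand) is the uncalled partner of Cox5b.
Atp5k: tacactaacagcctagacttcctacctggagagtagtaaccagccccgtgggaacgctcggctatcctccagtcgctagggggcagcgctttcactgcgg
Uqcr11: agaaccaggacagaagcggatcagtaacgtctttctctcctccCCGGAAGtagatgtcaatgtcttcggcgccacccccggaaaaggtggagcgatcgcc
Cox5b: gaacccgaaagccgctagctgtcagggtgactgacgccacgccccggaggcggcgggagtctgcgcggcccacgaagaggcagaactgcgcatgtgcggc
Ndufa11: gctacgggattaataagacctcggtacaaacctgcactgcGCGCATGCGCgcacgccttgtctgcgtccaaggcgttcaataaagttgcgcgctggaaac
Cox5a: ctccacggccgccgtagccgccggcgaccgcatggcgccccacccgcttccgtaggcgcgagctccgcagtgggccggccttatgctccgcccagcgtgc

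Ndufa11 held the NRF1 letters on both strands, as 2 overlapping matches, and Uqcr11 held 1 ETS match. Atp5k had no match in the stretch shown, but its full window, from 250 bases before the start to 50 after it, held 2 overlapping NRF1 matches and 1 ETS match. Cox5b and Cox5a had none in theirs. Windows were found for 67 of the 85 members and for 27025 genes in all. The NRF1 motif stood in 10 member windows (14.9%) and in 3.05% of all windows, the ETS motif in 16 (23.9%) and in 9.93%, and the E-box in 5 (7.46%) and in 8.09%. Among the 19 windows of members higher in TMPL, 5 held the NRF1 motif (26.3%), 6 the ETS motif (31.6%) and 2 the E-box (10.5%). Among 41 windows of members not called, the counts were 5 (12.2%), 10 (24.4%) and 3 (7.32%). A match describes letters and is not evidence of binding.

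Within each genotype, edgeR called few members between libraries with and without the Lung prefix. In Lung-Ctr against Ctr no member was called, and 0% of all genes were by edgeR. Only Atp5k (-1.53, SE 0.56) and Cox4i1 (0.50) had an unadjusted p under 0.05, against 5.33% of all genes, both with an adjusted p of 0.915 in edgeR. DESeq2 called none of the members either. Cox4i1, the general form of subunit 4 of complex IV, was at 255.6, 242.1 and 220.0 CPM in Ctr and at 402.8 and 245.0 in Lung-Ctr, where the groups overlapped.

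In Lung-LMP1 against LMP1, 1 member was called against 10.1% of all genes. Ndufa2, a complex I accessory subunit, was at 68.5 and 65.2 CPM in LMP1 and at 34.6, 44.0 and 30.8 in Lung-LMP1, and fell by 0.74 (SE 0.18, adjusted p 0.038 in edgeR). The call ended without the filter on low counts, and DESeq2 called 5 members. In the authors' deposited table, 6 members were lower and 2 higher of 79, against 26.2% of all genes called. Among the higher was Ndufa4 (0.87, adjusted p 0.00145), and among the lower Uqcr11 (-0.83, adjusted p 0.00687), both in that table. The groups did not overlap for 39 of the 78 members with Lung-LMP1 lower, against 35.5% of all genes. Ndufb9 (-0.63, adjusted p 0.0583) and Uqcr11 (-0.82, adjusted p 0.073) came next in edgeR. Uqcr11 was at 62.6 and 57.6 CPM in LMP1 and at 38.7, 28.5 and 25.5 in Lung-LMP1, without overlap.

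The test of whether the genotype difference itself differed between libraries with and without the Lung prefix called no member, against 0.892% of all genes. In this edgeR interaction 8 members and 15.6% of all genes had an unadjusted p under 0.05, and DESeq2 called 1 member. The smallest p belonged to Ndufb9 (-0.90, adjusted p 0.141), Ndufa13 (-0.69, adjusted p 0.219), Ndufa2 (-0.72, adjusted p 0.235) and Cox4i1 (-0.73, adjusted p 0.25). Ndufa2 was at 37.0, 44.5 and 41.5 CPM in Ctr and at 36.8 and 41.0 in Lung-Ctr, so that only the 2 LMP1 libraries were high.

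The comparison of Ctr with the comparator asked how the TMP tumours differed from untreated organoids. Small accessory subunits had the largest differences, here lower in Ctr, and most calls were in complex I. Ctr stands in this comparison and in LMP1 against Ctr, so the 2 sets of differences share those libraries and are not independent. Of 77 members tested, 3 were higher and 19 lower, against 9.67% and 12.7% of all genes (22.4% in all). The median log2 difference was -0.23 over the members and -0.05 over all genes. Complex I had 1 higher and 13 lower of 35, complex III 1 higher and 2 lower of 8, complex IV 3 lower of 13, and complex V 1 higher and 1 lower of 17. No gene of complex II was called, and all 4 had positive values with a median of 0.43.

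Uqcr11 was at 109.8, 74.3 and 102.4 CPM in the comparator, above the 19.6, 12.5 and 16.6 of Ctr, a log2 difference of -2.63 (SE 0.29, 6.18-fold lower in Ctr, adjusted p 0.00887 in edgeR). Cox5b was at 158.8, 143.4 and 105.4 CPM in the comparator and differed by -2.58 (SE 0.25, 5.98-fold lower in Ctr, adjusted p 0.00741 in edgeR). Ndufs6, a zinc-binding subunit of complex I, was at 66.6, 70.1 and 60.7 CPM in the comparator and at 13.3, 13.4 and 17.9 in Ctr. None of the 3 genes overlapped between the groups, and Ndufs6 differed by -2.21 (SE 0.25, adjusted p 0.00978 in edgeR). Ndufa3 (-2.38, adjusted p 0.0104), Ndufb7 (-1.93, adjusted p 0.0125), Ndufa12 (-1.84, adjusted p 0.0171), Cox6b1 (-1.78, adjusted p 0.0147) and Atp5k (-2.58, adjusted p 0.0188) were lower as well in edgeR. Atp5k was at 31.1, 25.8 and 25.8 CPM in the comparator, and Cox6b1 at 135.3, 159.6 and 141.6.

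The 3 higher members in Ctr were Ndufc1, Atp5c1, the rotating gamma subunit of ATP synthase, and Uqcrc1, a large core protein of complex III. Atp5c1 was at 326.1, 272.7 and 293.7 CPM in Ctr and at 162.4, 131.5 and 155.1 in the comparator, without overlap. Its log2 difference was 0.92 (SE 0.20, adjusted p 0.023 in edgeR). Ndufc1 differed by 0.995 (SE 0.21, adjusted p 0.0202) and Uqcrc1 by 0.82 (SE 0.22, adjusted p 0.0387) in edgeR.

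The balance of higher and lower calls changed when transcript length was taken into account. Across 76 annotated members, Spearman's rho of the difference with the longest transcript was 0.50, and it was 0.09 after length and GC were modelled as offsets. The same values for GC content were -0.38 and 0.17. The median longest transcript was 1135 bases for the members and 3354 for all genes tested. After the offsets, 14 members were higher and 6 lower, against 5.89% and 5.9% of all genes, the median was 0.31, and 9 of the 22 calls were kept. With the length offset alone 22 were higher and 6 lower, and with the GC offset alone 6 were higher and 11 lower. The share of all genes called with either offset alone is not given here, so these counts are not read as a result about the members. Cox5b (-1.86, adjusted p 0.019), Uqcr11 (-1.21, adjusted p 0.0295), Ndufs6 (-1.42, adjusted p 0.0285) and Ndufa3 (-1.40, adjusted p 0.037) stayed lower in edgeR, Atp5k was no longer called (-1.42, adjusted p 0.085), and Cox8a turned from -0.98 to 0.36. Sdhb, Atp5a1 and Cox7a2 became called as higher, at 1.28, 1.32 and 1.38 (adjusted p 0.0228, 0.0271 and 0.0222). Without Ctr replicate 3, 5 members were called, and 6 without Ctr replicate 2 or comparator replicate 3. For these fits, too, the share of all genes called is not given here. The authors' deposited table had 5 members higher and 22 lower of 79, and 28.8% of all genes called.

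**Figure D4:**
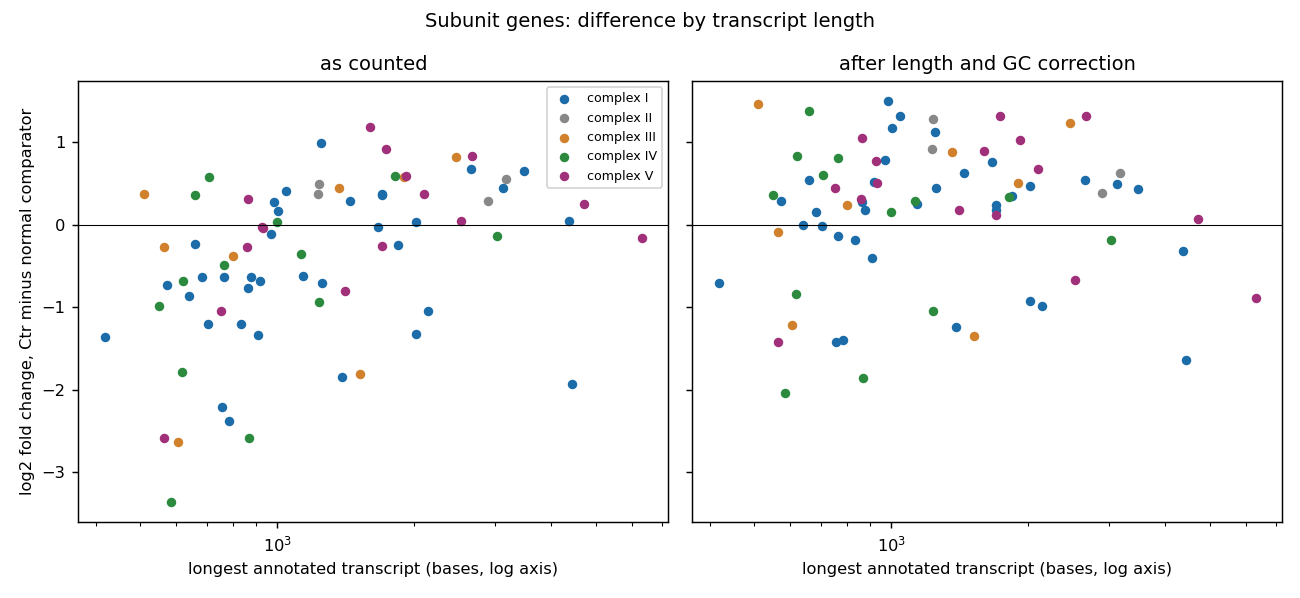
Each point is 1 annotated subunit gene. The horizontal axis is the length of its longest transcript in bases on a log scale, and the vertical axis the log2 difference of Ctr and the comparator, as counted in one panel and after the length and GC offsets in the other. The points rise with length as counted (rho 0.50) and scatter without a slope after the offsets (rho 0.09).

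The marker genes of other cell types also differed between Ctr and the comparator. The 6 alveolar type 2 markers summed to 133.7 to 303.3 CPM in the comparator and to 38.1 to 83.8 in Ctr, and 5 of the 6 were lower in Ctr. The 7 basal markers summed to 3737 to 18410 CPM in the comparator, against 1492 to 3699 in Ctr. The 7 immune markers summed to 67.8 to 298.4 CPM against 11.96 to 41.3, and the 6 secretory markers to 18.2 to 624.4 against 0.07 to 5.21. Their part in the subunit differences was not tested.

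In the untreated tissues the clearest differences were in isoforms of complex IV, and the share of members called was below that of all genes. In Normal_nasopha against Normal_lung, 2 of 81 members were higher and 11 lower (16% called), where 15.4% of all genes were higher and 15.6% lower (31.1% in all). The median log2 difference was -0.19 over the members and 0.13 over all genes. The largest difference belonged to Cox4i2, the lung isoform of subunit 4 of complex IV, which was at 5.12, 7.50 and 5.10 CPM in Normal_lung. In Normal_nasopha it was at 0.10, 0 and 0.15 CPM, from 2, 0 and 3 counts, at or below the floor, and edgeR gave a log2 difference of -6.25 (SE 0.76, adjusted p 0.00164). The general isoform Cox4i1 was at 182.2, 168.2 and 188.6 CPM in Normal_nasopha and at 209.5, 218.6 and 233.7 in Normal_lung, without overlap, and was not called (-0.45, adjusted p 0.0718 in edgeR). Cox4i1 was therefore the main form in both tissues.

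Cox7a1, the heart and muscle isoform of subunit 7a, was at 0.58, 0.46 and 0.58 CPM in Normal_nasopha and at 1.74, 1.85 and 1.26 in Normal_lung. It was lower in Normal_nasopha by edgeR (-1.72, SE 0.39, adjusted p 0.0164), at low levels in both tissues, and its general partner Cox7a2 was lower too (-0.59, adjusted p 0.0498). Cox6a2 and Cox8b, isoforms of heart and muscle, were at most at 0.388 CPM in the 6 libraries. Cox6b2, known from testis, was at 2.03, 2.58 and 15.6 CPM in Normal_nasopha and at 9.68, 8.36 and 2.82 in Normal_lung, so that 1 library of each group went against the others. Ndufa4 was higher in Normal_nasopha, at 188.1, 209.4 and 347.0 CPM against 92.2, 134.8 and 131.6 (0.91, SE 0.28, adjusted p 0.0493 in edgeR). Its low-oxygen relative Ndufa4l2 was at 0.10, 0.14 and 4.37 CPM in Normal_nasopha and at 1.89, 0.90 and 0.92 in Normal_lung, and 1 library set its group's mean.

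**Figure D5:**
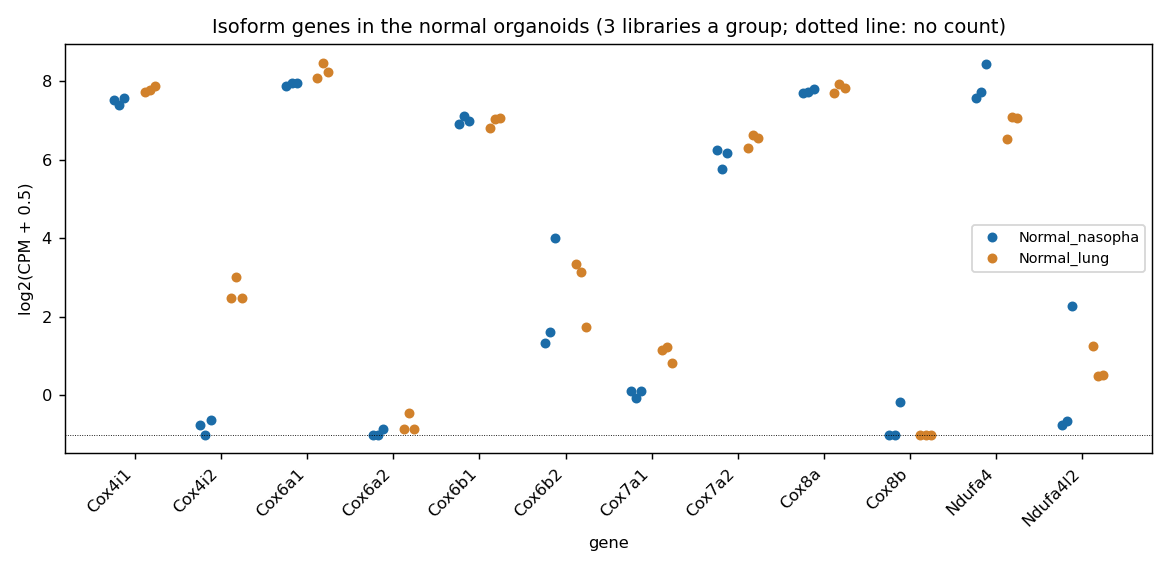
Each panel position is 1 of 12 genes for general and tissue-restricted isoforms, the vertical axis is log2(CPM + 0.5), and points are the 3 Normal_nasopha and 3 Normal_lung libraries. Cox4i2 is separated most, at 5.10 to 7.50 CPM in Normal_lung and at most 0.15 in Normal_nasopha, while Cox6a2 and Cox8b sit at the bottom in both.

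Among the other subunits, Ndufv3, a small subunit of the NADH-binding module, was at 41.2, 32.3 and 60.3 CPM in Normal_nasopha and at 90.0, 92.5 and 85.7 in Normal_lung (-1.16, SE 0.24, adjusted p 0.0124 in edgeR). Atp5g1, 1 of the genes that encode the same c-ring protein, was higher in Normal_nasopha, at 38.1, 36.9 and 26.2 CPM against 11.97, 20.3 and 14.1 (0.98, adjusted p 0.0293 in edgeR). Neither gene overlapped between the tissues. Atp5e, Atp5pb, Ndufa3, Ndufb11, Ndufc2, Ndufa13 and Uqcr11 were lower in Normal_nasopha by 0.68 to 0.84. Leaving out Normal_lung replicate 3, 2 or 1 left 2, 4 or 6 members called, and the share of all genes called in these fits is not given here. The 6 alveolar type 2 markers summed to 54560 to 65480 CPM in Normal_lung and 121.4 to 274.6 in Normal_nasopha, the 7 immune markers to 1670 to 2939 against 62.0 to 273.1, and the 7 basal markers to 306.5 to 457.6 against 3053 to 15500. The 8 muscle and brown fat markers summed to 1.51 to 5.94 CPM in Normal_lung and 3.58 to 26.1 in Normal_nasopha. All 3 of them that were tested were called, with Cidea (8.96, adjusted p 0.0039) and Acta1 (3.82, adjusted p 0.00698) higher and Des (-2.84, adjusted p 0.0434) lower in Normal_nasopha by edgeR. The 11 fibroblast and mesenchymal markers summed to 323.4 to 1055 CPM in Normal_lung and 19.5 to 51.5 in Normal_nasopha. Of 10 tested, 9 were lower in Normal_nasopha and 0 higher, against 15.6% and 15.4% of all genes. The 5 endothelial markers summed to 7.88 to 11.5 CPM against 1.16 to 3.54. The part of these cell types in the isoform differences was not tested.

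The restricted isoforms were scarce in the tumours. Cox4i2 stayed at or below 0.367 CPM, Cox7a1 at or below 0.498, and Cox6a2 and Cox8b at or below 0.332 in all 10 tumour libraries. Ndufa4l2 was uneven within groups. It stood at 4.92, 0 and 0.21 CPM in Ctr and at 0.83 and 0.61 in LMP1. The Lung-Ctr libraries had 0.14 and 14.4 CPM, and the 3 Lung-LMP1 libraries 0.07, 3.43 and 3.03. No order of the groups can be read from it.

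Other genes of the pathway, taken from lists of assembly factors and related enzymes, were called in small numbers in LMP1 against Ctr. Of the assembly factors, 1 of 14 for complex I was higher (Ndufaf2, 1.30, adjusted p 0.0196), 1 of 4 for complex II (Sdhaf1, 1.56, adjusted p 0.0244), 1 of 6 for complex III (Uqcc2, 1.10, adjusted p 0.00842), 0 of 19 for complex IV and 0 of 3 for complex V, by edgeR. None of 13 enzymes of the tricarboxylic acid cycle was called. Of all genes, 7.36% were higher and 9.06% lower in this comparison. In coenzyme Q synthesis, Coq7, a hydroxylase, was higher (0.94, adjusted p 0.0312) and Coq10b, which binds coenzyme Q, was lower (-1.30, adjusted p 0.0194) among 11. The ADP/ATP carrier Slc25a4 was higher (0.74, adjusted p 0.0276), 1 of 5 carriers. Of 17 transcription regulators of mitochondrial genes, 1 was lower: Epas1, a factor active at low oxygen (-3.06, SE 0.60, adjusted p 0.0138 in edgeR).

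In the pooled TMPL contrast, cytochrome c itself (Cycs, 0.89, SE 0.20, adjusted p 0.0187) and the nuclear receptor Esrra, a regulator of respiratory genes (0.66, adjusted p 0.0277), were higher in edgeR. Of the 17 regulators tested, 1 was higher and 1 lower. Of 13 enzymes of the tricarboxylic acid cycle, 2 were higher and 0 lower, and of 11 genes of coenzyme Q synthesis 1 was higher and 1 lower. Of all genes, 8.48% were higher and 9.61% lower in this contrast. In Ctr against the comparator, 4 of 13 enzymes of the tricarboxylic acid cycle were higher and none lower (Suclg2, Fh1, Idh3a and Dld, 0.76 to 1.30), and 5 of 17 regulators were higher and 2 lower, beside 9.67% of all genes higher and 12.7% lower. Tfam, which packages mitochondrial DNA, was higher (1.31, SE 0.22, adjusted p 0.0128), and Esrra was lower (-1.41, SE 0.30, adjusted p 0.0208) in edgeR. The complex IV assembly factor Pet100 was lower (-2.55, SE 0.45, adjusted p 0.0139 in edgeR), as 3 of 20 factors of that list were, while 2 were higher. These calls against the comparator are from the fit without the length and GC offsets, which changed the balance of member calls in that comparison. In the normal tissues, 3 of 15 complex I assembly factors and 2 of 13 enzymes of the tricarboxylic acid cycle were higher in Normal_nasopha and none lower. Of 13 genes of coenzyme Q synthesis, 3 were higher and 1, Coq7, was lower (-1.81, adjusted p 0.00235 in edgeR). These counts lie near the background of that comparison, where 15.4% of all genes were higher and 15.6% lower.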

How the data were processed

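Per the submitters' processing notes, STAR, DESeq2, DESeq and mm10 were used; the counting tool and annotation, like all versions, were not given in the sources used here. Each table that the authors deposited holds whole-number raw counts for each gene, and only these were tested. Their log2 fold changes and adjusted p-values, also in the authors' deposited tables, are quoted as theirs. The 32 columns headed TPM were not used. The 13 columns that repeat a library were identical.

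edgeR 4.0.16 in R 4.3.3 (filterByExpr by group, TMM factors, robust quasi-likelihood F-test) was fitted to the 10 tumour libraries together (6 residual degrees of freedom), and to 6 columns each for the comparator and the normal tissues (4 residual degrees of freedom). Benjamini-Hochberg adjustment ran over all genes tested, with calls at an adjusted p under 0.05. CPM uses total counts, and log2 CPM a prior count of 0.5. Length and GC offsets came from smooths (mgcv 1.9.3, basis size 8) on the longest transcript, with 84 members annotated and 1 not. DESeq2 1.42.0 was an alternative. The edgeR test, DESeq2 and the fit with offsets were tried on simulated counts of the 10 tumour libraries, with known changes in LMP1 against Ctr. The simulation used a single fixed dispersion and held no length or GC bias. The comparator and normal tissue fits, the replicate block, the interaction and the pooled contrast were not simulated.

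The members and lists were chosen with earlier results of these data known, so counts over them are descriptions. Named genes were core pairs, restricted isoforms, the 6 called members of largest change in each direction whose mean log2 CPM was 3 or more, or the 4 of smallest p where fewer than 2 were called; other members were named after their values were seen. Near-identical pseudogene copies of subunit genes make counts uncertain where reads could be split. The values of 1 member are not reported here by name.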

Additional observations from a re-analysis of the deposited data

How the results depend on the processing

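The counts of called members moved with several choices. The share of all genes called is not given beside the counts of this section, so they do not show whether members moved more than other genes. Some ranges without single libraries include fits that left 1 library in a group. In LMP1 against Ctr (20 members called), 11 were called with only those 2 groups in the fit, and 0 to 21 when each library was left out in turn. In Lung-LMP1 against Lung-Ctr (0), DESeq2 called 17, and leaving out libraries gave 0 to 2. In Lung-LMP1 against LMP1 (1), 0 were called with no filter on low counts and 0 with the GC correction alone, 5 by DESeq2, 4 with only the 2 groups, and 0 to 2 without single libraries. In the interaction (0), DESeq2 called 1, and leaving out libraries gave 0 to 1. Ctr against the comparator (22) gave 41 with all 13 columns in 1 fit, and 5 to 24 without single libraries. The normal tissues (13) gave 2 to 15, and the pooled TMPL contrast (28) gave 12 to 32. Lung-Ctr against Ctr had 0 in every setting run. The cause of these shifts was not tested beyond the smaller number of samples in some fits.

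Libraries with the same replicate number were not alike (r of their deviations -0.341 to -0.0144), so the numbers do not pair them. With the replicate number as a block, 6 members were called in LMP1 against Ctr, 8 in Ctr against the comparator, 4 in the normal tissues, 17 in the pooled contrast and 0 in the interaction and in the other 3 tumour comparisons. With length and GC offsets, Cox4i1 (0.81) and Cox8a (0.36) reversed in Ctr against the comparator, and Ndufa4l2 reversed in the normal tissues without Normal_nasopha replicate 3, its values without single libraries running from -3.52 to 0.70. Of 42 calls of named members, 31 were kept with the offsets and 41 with DESeq2. The length-alone and GC-alone offsets and the pooled contrast were chosen after seeing the data. Depth limits the restricted isoforms near 3 counts.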
